A study of Mus musculus with 5 samples.

Results

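Solute carriers are membrane proteins that move amino acids, ions, sugars, nucleosides, vitamins and metabolites across the plasma membrane and the membranes of organelles. Most work as exchangers, or let a solute ride on the gradient of sodium or protons, and the Slc25 family carries metabolites through the inner membrane of mitochondria. Lymphocytes depend on them for growth, and the transcription factor MYC is known to raise several amino acid carriers in activated T cells. Members were all genes whose symbol begins with Slc and a digit and whose mean was at least 1 RPKM (reads scaled to transcript length and sequencing depth) over the 5 libraries. Left out by name were 8 genes (Slc2a1, Slc2a3, Slc16a1, Slc16a3, Slc40a1, Slc11a1, Slc4a1 and Slc7a11). This gave 175 of the 230 Slc genes in a table of 13004 genes, and 47 lay under the level. Members were thus selected on their mean RPKM over the same libraries that are compared below, so the level is described and not tested. Just inside it lay Slc35g2 (mean 1.01 RPKM) and Slc22a15 (1.03 RPKM), and just outside it Slc27a1 (0.976 RPKM) and Slc6a18 (0.961 RPKM).

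RNA had been sequenced from NK cells of the mouse spleen, sorted as live CD3-, NK1.1+, DX5+ cells. The mice were C57BL/6 and 8 weeks old. Controls carried loxP-flanked Myc alleles (Mycf/f; 3 libraries, numbered 1, 2 and 3), and MycKO mice had lost Myc through Cre expressed from Ncr1 (Mycdelta/delta/Ncr1Cre; 2 libraries, numbered 5 and 6). No Cre is named in the genotype of the controls, so Cre and the loss of Myc differed together. The labels do not tie each library to its own mouse, so each p-value here reflects only how far these samples scatter, and that scatter may be technical.

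Reads in listed genes ranged from 13337084 to 17610826 in controls and MycKO 6, and came to 5451728 in MycKO 5, whose low values carry more counting error. Myc was at 12.98, 22.97 and 21.2 RPKM in controls 1, 2 and 3, against 12.5 RPKM in MycKO 5 and 8.70 RPKM in MycKO 6, and the difference did not pass the test (log2 fold change -0.77, limma adjusted p = 0.297). Both MycKO libraries lay below all controls, and a value over the whole gene does not show how complete the deletion was. Defining NK genes were high in all libraries, with Ncr1 at 633 to 1619 RPKM. Markers of several other cell types had higher sums in MycKO, as the plot of marker lists by library shows, though the sort gate was set to leave out CD3+ cells. Of 14 macrophage markers, 11 rose (limma adjusted p under the threshold of 0.05), and their summed level was 290 to 438 RPKM across controls against 1495 to 1591 RPKM in MycKO. Of 9 erythroid markers tested, 4 rose, with sums of 91.5 to 142 and 250 to 436 RPKM. Neutrophil markers (2 of 7 rose; 24.4 to 82.8 and 241 to 583 RPKM), T cell markers (3 of 9; 40.9 to 61.2 and 147 to 211 RPKM) and B cell markers (1 of 8; 92.7 to 145 and 350 to 682 RPKM) were also higher in MycKO, and the neutrophil marker Mpo was at 0 in all controls. No basophil and mast cell marker of 5 tested passed (4.89 to 6.13 and 10.7 to 64.5 RPKM, with Mcpt8 at 0 in all controls), and none of 4 platelet markers (3.95 to 7.93 and 3.91 to 13.4 RPKM). None of 10 NK cell markers passed limma, while Tbx21, Prf1 and Gzma were lower in limma-voom (0.0313, 0.0336 and 0.0242) and these and Ncr1 in the authors' deposited table (0.00272, 0.00863, 0.0365 and 0.000689). The 10 together had a summed level of 11310 to 13020 RPKM across controls against 8718 to 10480 RPKM in MycKO. Gzma made up a large part of that sum, at 7251, 6894 and 6584 RPKM across controls against 4699 and 5620 RPKM in MycKO. Log2 fold changes were positive for 3 of the 10 (Klrb1c 0.05, Klrd1 0.03 and Gzmb 0.27). The part of these other cells in the results on carriers was not tested, and in bulk RNA a larger number of cells of a type and more RNA per cell cannot be told apart.

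**Figure D1:**
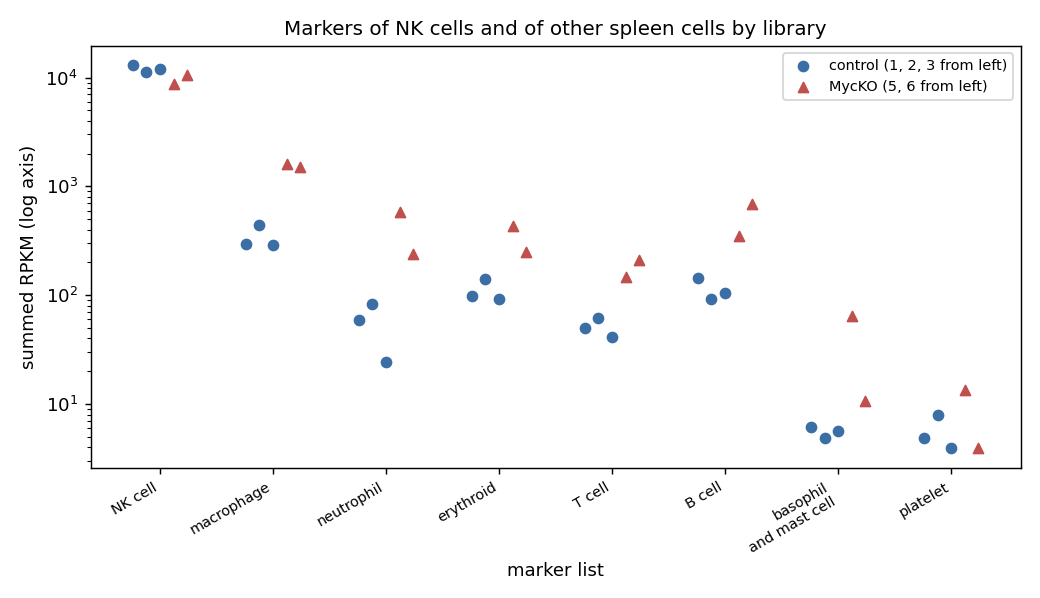
Summed RPKM (log axis) of 8 marker lists in each library; circles are controls 1, 2 and 3 and triangles MycKO 5 and 6. The macrophage sum lay at 290 to 438 RPKM across controls against 1495 to 1591 RPKM in MycKO, while the NK cell sum lay at 11310 to 13020 and at 8718 to 10480 RPKM. Gzma made up a large part of the NK cell sum.

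Most solute carriers differed little between the groups. Of 174 members tested, 2 rose in MycKO, Slc38a5 and Slc15a3, both carriers of amino acids or peptides, and none fell. The rise of 1.15% of members stands beside 1.24% of all 11190 genes tested that were called higher, and 0.0983% were called lower. The share of members called is thus near the background. At an unadjusted p under 0.05, 21 members were higher (background 9.83%) and 2 were lower (background 3.35%). The groups did not overlap for 36 members that were higher (20.7%, background 18.8%) and for 15 that were lower (8.62%, background 10.4%). The median log2 fold change was 0.10 over the members and 0.05 over all genes tested, on the log2(RPKM + 1) scale used throughout, which understates changes of genes at low level. For 80.5% of members the change was smaller than 0.5 in either direction, and for all genes tested the share was 80.6%. Together the members took 0.818%, 0.812% and 0.798% of the reads in controls 1, 2 and 3, against 0.852% in MycKO 5 and 0.862% in MycKO 6, so both MycKO libraries lay above the controls by a small margin. The count of members called was 0 without control 1, control 3, MycKO 5 or MycKO 6, 5 in limma-voom on reads recovered from the table, and 8 in the authors' deposited table. Those 8 were Slc38a5, Slc15a3, Slc43a1, Slc43a2, Slc45a3, Slc16a10, Slc25a21 and Slc12a2, all of them higher (background there 2.9% higher and 0.5% lower), and the 5 of limma-voom (background 1.83% higher and 0.241% lower) were Slc15a3, Slc43a2, Slc45a3, Slc16a10 and Slc12a2.

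Large differences were found among carriers of low level. All 14 members above 1 on the log2 scale were at 1 to under 10 RPKM on average, their control means ran from 0 to 5.20 RPKM, and 11 of the 14 were under 2 RPKM in controls. For 13 of them the groups did not overlap, which a choice by large change favours. Over all genes tested, 18.8% were higher without overlap. None was below -1. Among the 73 members at 10 RPKM or more, log2 fold changes ran from -0.56 (Slc9a7) to 0.80 (Slc25a37), with a median of 0.07, and none passed the test. The filter on low values asked for at least 1 RPKM in at least 2 libraries. For 4 members (Slc38a5, Slc43a1, Slc25a21 and Slc39a8) all controls were under 1 RPKM, so they passed it only through the MycKO libraries and had to differ. The opposite held for 1 member, Slc5a11, which was under 1 RPKM in both MycKO libraries. Slc22a15 was the 1 member not tested.

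**Figure D2:**
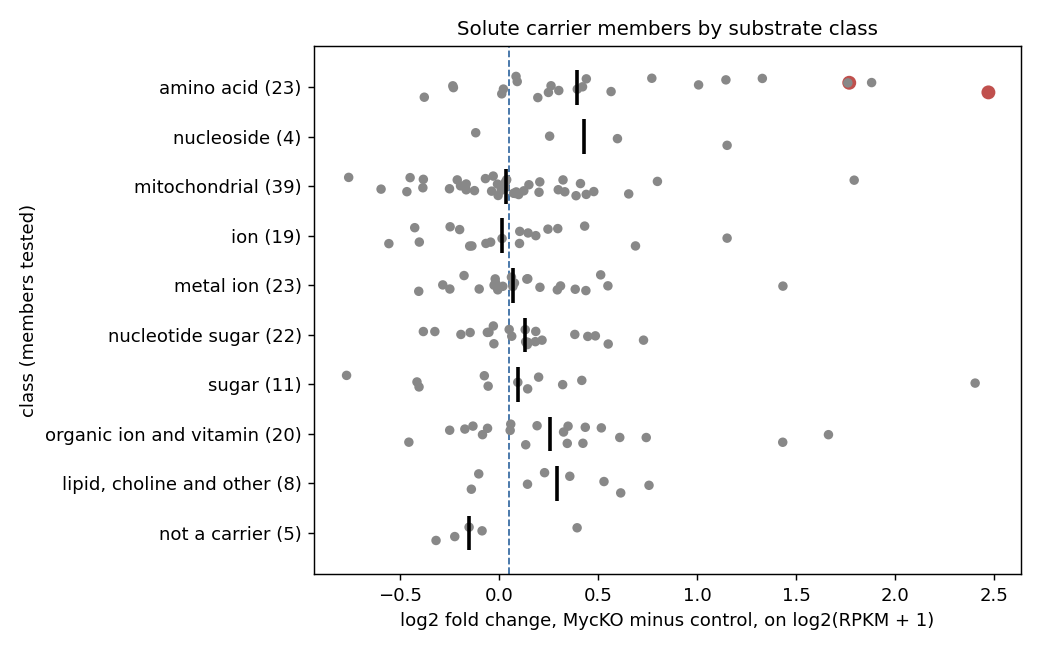
Log2 fold change of each tested member (horizontal axis, MycKO minus control on log2(RPKM + 1)) by class (vertical axis, number tested in brackets). Black bars are class medians, the dashed line is the median of all genes tested (0.05), and larger red points are the 2 members that passed the test, Slc38a5 and Slc15a3.

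Carriers of amino acids and peptides held both called members, of which Slc38a5 passed the filter only through MycKO and so gives no support to the class. In this class 20 of 23 members had a positive log2 fold change and 3 a negative one, with a median of 0.39. Among all genes tested, 57.1% were positive. The class summed to 269, 278 and 275 RPKM across controls against 316 and 322 RPKM in MycKO. The count, the median and the sum include Slc38a5 and Slc43a1, which the filter kept only through MycKO, so both had to be positive. Slc38a5 (Entrez 209837; mm10 chromosome X, 8271133 to 8280179, plus strand), a sodium-coupled carrier of glutamine and other neutral amino acids, had 0 reads in all 3 controls. In MycKO 5 and 6 it was at 6.58 and 3.05 RPKM, from 67 and 76 reads. The mean of 4.82 RPKM was at least 46.6-fold higher than the level that 3 reads per control library would give (0.104 RPKM; counting error only). The log2 fold change came to 2.47 (SE 0.41, limma adjusted p = 0.0397). This call was lost when leaving out control 1 (0.118) or control 3 (0.124), with a pseudocount of 0.1 (0.104) and in limma-voom (0.125), and without either MycKO library the gene no longer passed the filter. The gene was higher in MycKO 5 than in MycKO 6. So were the sums of erythroid (436 and 250 RPKM), neutrophil (583 and 241 RPKM), basophil and mast cell (64.5 and 10.7 RPKM) and platelet markers (13.4 and 3.91 RPKM). The macrophage sum (1591 and 1495 RPKM) had this order too, but Lyz2 made up much of it (733.6 and 210.5 RPKM). Most other macrophage markers were higher in MycKO 6, as were the T cell (147 and 211 RPKM) and B cell sums (350 and 682 RPKM). The order of 2 libraries does not tell which cells the Slc38a5 reads came from, and this was not tested.

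Slc15a3 (Entrez 65221; chromosome 19, 10839727 to 10859362, plus strand) carries histidine and short peptides out of endosomes and lysosomes and is known from macrophages and dendritic cells. It was at 1.30, 2.03 and 1.67 RPKM across controls against 6.80 and 9.46 RPKM in MycKO, a log2 fold change of 1.77 (SE 0.30, limma adjusted p = 0.0446). Both MycKO libraries lay above every control. The call was lost when leaving out control 1 (0.136), control 3 (0.136), MycKO 5 (0.234) or MycKO 6 (0.302), with a pseudocount of 0.1 (0.0744), with no filter (0.0568), and under median-of-ratios (0.0512) and upper-quartile scaling (0.0511). Limma-voom kept it (0.0365). Slc15a4, a related lysosomal carrier chosen after its values were seen, was at 7.66, 8.83 and 10.3 RPKM across controls against 19.2 and 13.0 RPKM in MycKO and did not pass (0.77, adjusted p = 0.209). The macrophage sum of 1495 to 1591 RPKM in MycKO, against 290 to 438 RPKM in controls, stands beside both genes.

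The facilitated carriers Slc43a1 and Slc43a2, for large neutral amino acids such as leucine, were higher in both MycKO libraries without passing limma. The filter kept Slc43a1 only through MycKO, so that gene had to differ. The leucine exchanger Slc7a5, described below, overlapped between the groups. Slc43a1 (chromosome 2, 84838850 to 84863594, plus strand) was at 0.0860, 0 and 0.136 RPKM in controls, from 4, 0 and 6 reads, and at 2.73 and 2.55 RPKM in MycKO (1.76, adjusted p = 0.0765). It passed with no filter (0.0319), with a filter of at least 5 CPM (0.0272) and in the authors' deposited table (0.0102). Slc43a2, chosen after its values were seen, was at 5.01, 5.11 and 5.49 RPKM across controls against 10.1 and 13.0 RPKM in MycKO (1.01, SE 0.23, adjusted p = 0.0974). It passed in limma-voom (0.00688) and in the authors' deposited table. Among partners of the Slc3a2 heavy chain, Slc7a8 was at 0.724, 1.21 and 0.0520 RPKM across controls against 4.59 and 5.13 RPKM in MycKO (1.88, adjusted p = 0.0879). Slc7a7, which exchanges basic for neutral amino acids, was at 1.52, 2.09 and 1.02 RPKM across controls against 3.77 and 5.45 RPKM in MycKO (1.15, adjusted p = 0.199). For neither did the groups overlap, and both genes were chosen after their values were seen. Slc16a10, which carries aromatic amino acids and is classed here by its monocarboxylate family, showed the same order. It was at 0.692, 1.59 and 1.19 RPKM across controls against 5.46 and 6.00 RPKM in MycKO (1.66, SE 0.33, adjusted p = 0.0680), and it passed in limma-voom (0.00688) and the authors' deposited table (2.73e-05). Macrophage and erythroid markers were higher in the same MycKO libraries (sums of 1495 to 1591 and 250 to 436 RPKM).

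**Figure D3:**
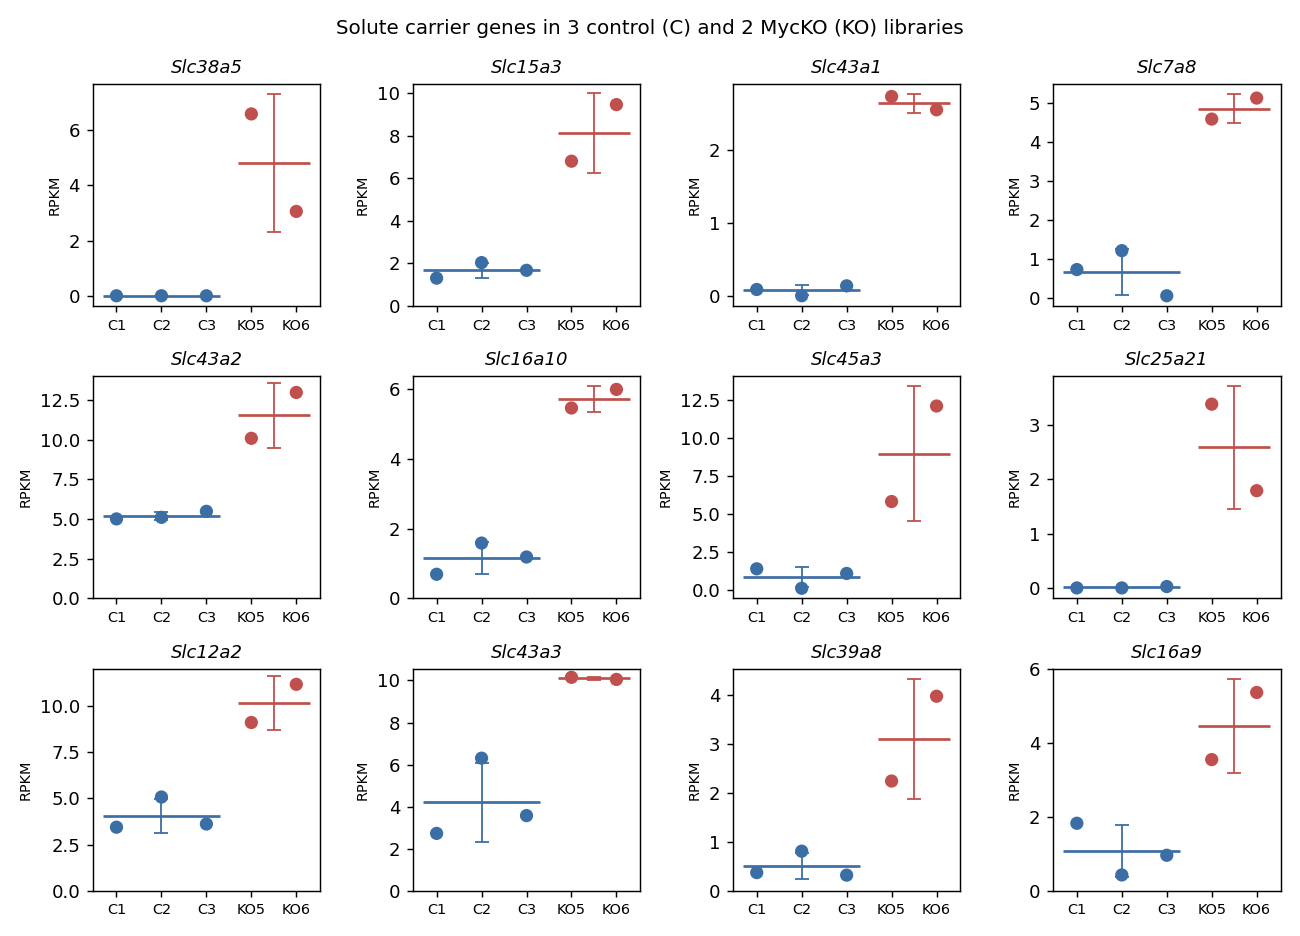
RPKM (vertical axis, linear, from 0) of 12 members in controls 1, 2 and 3 (C, blue) and MycKO 5 and 6 (KO, red); lines are group means and bars the SD. In every panel both MycKO points lie above all control points, and in the panel of Slc38a5 the controls are at 0. The 12 members were chosen after their values were seen.

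Among amino acid carriers that NK cells are known to use, several were more abundant, and none passed the test. Slc38a2, a sodium-coupled carrier of glutamine and alanine and the most abundant of the class, was at 73.9, 61.4 and 77.2 RPKM across controls against 73.9 and 75.8 RPKM in MycKO (0.08, SE 0.13, adjusted p = 0.882). Slc1a5, a glutamine exchanger, was at 46.6, 54.7 and 59.8 RPKM across controls against 43.9 and 46.6 RPKM in MycKO (-0.23, adjusted p = 0.575). Slc38a1 was at 24.6 ± 1.05 RPKM (SD, n = 3) in controls against 26.3 ± 1.02 RPKM (SD, n = 2) in MycKO (0.09, adjusted p = 0.876), and the groups overlapped. Slc3a2, the CD98 heavy chain that brings Slc7 light chains to the surface, was at 28.1, 28.2 and 23.9 RPKM across controls against 24.8 and 29.5 RPKM in MycKO (0.02, adjusted p = 0.979). Its partner Slc7a5, a leucine exchanger, was far lower, at 3.84, 3.93 and 2.39 RPKM across controls against 8.30 and 2.60 RPKM in MycKO (0.42, adjusted p = 0.803). Only MycKO 5 stood out for Slc7a5, and without it the sign turned (-0.26). Slc3a2 exceeded Slc7a5 by a factor of 8.17 ± 1.59 (SD, n = 3) in controls and of 2.99 and 11.4 in MycKO 5 and 6. The sum of the light chains Slc7a5, Slc7a6, Slc7a7 and Slc7a8 was 12.4 ± 4.67 RPKM (SD, n = 3) in controls against 19.7 ± 4.54 RPKM (SD, n = 2) in MycKO, and control 2 (17.8 RPKM) lay above MycKO 6 (16.5 RPKM). Slc7a6, a light chain for basic amino acids next to the member Slc7a6os on the opposite strand, was at 3.76, 10.6 and 6.10 RPKM across controls against 6.29 and 3.34 RPKM in MycKO (-0.38, adjusted p = 0.817). Slc7a1, a carrier of arginine and lysine, was at 7.03 ± 1.27 and 7.03 ± 0.138 RPKM (0.01, adjusted p = 0.994). Slc6a6, the taurine carrier, was at 15.4, 13.8 and 12.5 RPKM across controls against 21.1 and 17.4 RPKM in MycKO (0.44, adjusted p = 0.358), with both MycKO libraries above every control. As a list of 8 carriers known in NK cells (Slc7a5, Slc3a2, Slc1a5, Slc38a1, Slc38a2, Slc7a1, Slc7a6 and Slc6a6), none passed, and their summed level was 202 to 214 RPKM across controls against 209 to 211 RPKM in MycKO.

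The 8 carriers that MYC is known to regulate in other cells (Slc7a5, Slc3a2, Slc1a5, Slc38a5, Slc19a1, Slc43a1, Slc29a1 and Slc20a1) were not lower as a list. Log2 fold changes were positive for 6 and negative for 2. The 6 include Slc38a5 and Slc43a1, which the filter kept only through MycKO, so both had to be positive. For the others, values ran from -0.23 (Slc1a5) to 0.60 (Slc29a1). None of the 8 was called lower, and the 1 called higher was Slc38a5. The median log2 fold change of the 8, which counts Slc38a5 and Slc43a1, was 0.42. Their summed level was 144 to 165 RPKM across controls against 162 RPKM in both MycKO libraries. Slc20a1, a sodium-phosphate carrier, made up a large part of that sum, at 55.2, 54.1 and 68.9 RPKM across controls against 54.8 and 59.8 RPKM in MycKO (-0.04, adjusted p = 0.951). Slc19a1, the reduced folate carrier, was at 1.97, 2.35 and 3.37 RPKM across controls against 4.29 and 3.20 RPKM in MycKO (0.42, adjusted p = 0.690), and the groups overlapped. Slc38a5 and Slc43a1, the members of this list that were higher in both MycKO libraries than in every control, were at under 1 RPKM in all controls.

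The hexamer CACGTG, the E-box that MYC binds together with MAX, was searched in RefSeq promoter windows (GRCm38.p6, 250 bases before to 50 after each start, 300 in all). It reads the same on both strands. Of 175 members, 133 had a window in the table used. It was found in 25 of 176 windows of members (14.2%), in 10.1% of windows of the genes tested, and in 7.15% of all 32851 windows. By gene, 23 of 133 members held it (17.3%), against 11.9% of the genes tested. The median log2 fold change was 0.08 for the 23 members with the motif (12 higher, 11 lower) and 0.09 for 109 tested members without it (69 higher, 40 lower). Members without a window could not be searched, so a count among the carriers tied to MYC is not a rate to set beside these shares. Of these 8 carriers, 4 held the motif in a window. Stretches of 100 bases before a RefSeq start of each are shown because they place the MYC motif beside the values given for these genes. The sequences run 5′ to 3′ along the gene's strand, with the E-box in capitals. They lie at chrX:8271281-8271380 (plus strand) for Slc38a5, chr2:84840212-84840311 (plus) for Slc43a1, chr2:129198551-129198650 (plus) for Slc20a1 and chr17:45595269-45595368 (minus) for Slc29a1.
Slc38a5: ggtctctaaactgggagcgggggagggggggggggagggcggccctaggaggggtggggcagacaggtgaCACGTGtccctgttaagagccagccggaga
Slc43a1: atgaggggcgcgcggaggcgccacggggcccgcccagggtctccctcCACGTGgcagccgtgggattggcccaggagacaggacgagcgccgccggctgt
Slc20a1: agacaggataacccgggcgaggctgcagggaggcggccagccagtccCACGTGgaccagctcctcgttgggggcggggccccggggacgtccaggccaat
Slc29a1: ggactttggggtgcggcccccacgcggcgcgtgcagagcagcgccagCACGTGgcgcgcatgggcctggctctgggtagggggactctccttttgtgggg
The motif begins 30, 64, 175 and 75 bases before a RefSeq start of these 4 genes, and a gene can have several starts. The stretches of Slc38a5, Slc43a1 and Slc29a1 lie inside the GENCODE genes, whose 5′ ends are at 8271133, 84838850 and 45599606. The window of Slc20a1 holds 2 motifs, of which the one farther from the start is shown. Slc38a5 and Slc43a1 were under 1 RPKM in all controls, so the filter kept them only through MycKO and they had to differ. Slc20a1 and Slc29a1 overlapped between the groups. No relation of motif and direction is drawn from these 4 promoters. A match is a description of the letters, and binding was not measured here.

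Nucleoside and nucleobase carriers numbered 4, and none passed the test. Slc43a3, which carries purine nucleobases, was at 2.73, 6.31 and 3.58 RPKM across controls against 10.1 and 10.1 RPKM in MycKO (1.15, SE 0.33, adjusted p = 0.176), with both MycKO libraries above every control. Slc29a1, the equilibrative nucleoside carrier of the plasma membrane, was at 7.81, 20.5 and 6.31 RPKM across controls against 16.9 and 14.8 RPKM in MycKO (0.60, adjusted p = 0.674). Control 2 was the highest library for Slc29a1, so the groups overlapped. That control was also the highest for the proliferation gene Mki67, at 34.5 RPKM. Controls 1 and 3 were at 6.36 and 6.66 RPKM for Mki67, while 25.0 and 13.7 RPKM were found in MycKO, and the part of proliferation was not tested. Slc28a2, a sodium-coupled carrier of purine nucleosides and the most abundant of the class, was at 31.5, 21.3 and 28.2 RPKM across controls against 26.0 and 23.1 RPKM in MycKO (-0.12, adjusted p = 0.889). Slc28a2 exceeded Slc29a1 by a factor of 4.03, 1.04 and 4.48 in controls and of 1.53 and 1.56 in MycKO. Slc29a3, which acts in lysosomes and was named after its values were seen, was at 5.21 ± 1.58 RPKM (SD, n = 3) in controls against 6.67 ± 3.49 RPKM (SD, n = 2) in MycKO.

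Mitochondrial carriers of the Slc25 family were the largest class, with 39 members, and none passed the test. Log2 fold changes were positive for 22 and negative for 17, with a median of 0.03. Their summed level was 970, 1063 and 923 RPKM across controls against 1070 and 944 RPKM in MycKO. Slc25a5, an ADP/ATP exchanger, had the highest mean of all members over the 5 libraries, at 212, 220 and 177 RPKM across controls against 251 and 193 RPKM in MycKO (0.12, adjusted p = 0.837), though in controls alone Slc25a3 was higher (218 against 203 RPKM on average). The gene has close copies in the genome, so its reads may have been divided between them. Its paralogue Slc25a4 was at 39.8, 70.4 and 54.3 RPKM across controls against 54.8 and 49.8 RPKM in MycKO. Slc25a5 thus exceeded Slc25a4 by a factor of 3.90 ± 1.23 (SD, n = 3) in controls and 4.23 ± 0.507 (SD, n = 2) in MycKO. Slc25a3, the phosphate carrier that feeds ATP synthesis, was at 218 ± 25.1 RPKM (SD, n = 3) in controls against 195 ± 35.9 RPKM (SD, n = 2) in MycKO (-0.17, adjusted p = 0.745). Both were named after their values were seen.

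The smallest p-values of the class belonged to Slc25a21, Slc25a20 and Slc25a37. Slc25a21 (chromosome 12, 56712634 to 57197472, minus strand), which carries oxodicarboxylates of lysine and tryptophan breakdown, had 0, 0 and 1 reads in controls and 51 and 66 reads in MycKO 5 and 6. This gave 0, 0 and 0.0253 RPKM and 3.38 and 1.79 RPKM (1.79, SE 0.40, adjusted p = 0.0937), and it passed with no filter (0.0450) and in the authors' deposited table (0.00103). Like Slc38a5 it was higher in MycKO 5 than in MycKO 6, the order of the erythroid, neutrophil, basophil and mast cell, and platelet sums given beside that gene. Most macrophage markers and the T cell and B cell sums had the opposite order. Here too the cells that the Slc25a21 reads came from were not tested. Slc25a20, the carnitine-acylcarnitine carrier that brings fatty acids to oxidation, was at 16.6, 15.0 and 13.4 RPKM across controls against 23.6 and 24.5 RPKM in MycKO (0.65, SE 0.16, adjusted p = 0.127). Slc25a37, the iron carrier mitoferrin of red cell precursors, was at 10.6, 6.07 and 7.21 RPKM across controls against 14.9 and 13.6 RPKM in MycKO (0.80, SE 0.26, adjusted p = 0.229). Its widely expressed relative Slc25a28 was at 15.7, 14.5 and 14.0 RPKM across controls against 16.5 and 16.4 RPKM in MycKO (0.15, adjusted p = 0.811). The ratio of Slc25a28 to Slc25a37 was 1.94 ± 0.448 (SD, n = 3) in controls and 1.16 ± 0.0693 (SD, n = 2) in MycKO, with no overlap between the groups. Slc25a36, a carrier of pyrimidine nucleotides, was at 21.7 ± 1.16 and 28.6 ± 0.746 RPKM (0.39, adjusted p = 0.284), and Slc25a14, of the uncoupling protein branch, was at 5.06 ± 0.976 and 2.98 ± 0.429 RPKM (-0.60, adjusted p = 0.441). In each of these 2 genes the groups did not overlap. Slc25a28, Slc25a36 and Slc25a14 were named after their values were seen.

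Carriers of sodium, potassium, chloride, protons, bicarbonate, phosphate and sulphate numbered 19, with 10 higher and 9 lower, a median of 0.01 and no call. Slc12a2, which imports sodium, potassium and chloride together, was at 3.44, 5.08 and 3.62 RPKM across controls against 9.11 and 11.2 RPKM in MycKO (1.15, SE 0.26, adjusted p = 0.101). It passed in limma-voom (0.0106) and in the authors' deposited table (0.000510). Slc12a7, a potassium-chloride exporter named after its values were seen, was at 41.7, 37.04 and 36.2 RPKM across controls against 24.4 and 33.7 RPKM in MycKO (-0.40, adjusted p = 0.371). Both MycKO libraries lay below every control. Slc8b1, which exchanges sodium for calcium in mitochondria, was at 11.3, 13.0 and 8.57 RPKM across controls against 17.2 and 18.9 RPKM in MycKO (0.69, adjusted p = 0.218). Slc9a7, a sodium-proton exchanger of the Golgi, was at 18.1, 13.1 and 19.8 RPKM across controls against 10.8 and 11.3 RPKM in MycKO (-0.56, SE 0.21, adjusted p = 0.328), and both MycKO libraries lay below the controls. Of the 5 sodium-proton exchangers of the Slc9 family that were members, 4 had a negative log2 fold change, and their sum was 79.9 ± 4.04 RPKM (SD, n = 3) in controls against 72.8 ± 5.23 RPKM (SD, n = 2) in MycKO.

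Carriers of zinc, copper, iron and magnesium numbered 23, with 14 higher, 9 lower, a median of 0.07 and no call. Zinc importers of the Slc39 family summed to 122, 122 and 111 RPKM in controls and to 122 and 127 RPKM in MycKO over 11 members, and zinc exporters of the Slc30 family to 73.5, 61.9 and 62.4 RPKM and to 69.7 and 72.6 RPKM over 6 members. The groups overlapped for both sums. Slc39a8, an importer of zinc and manganese, was at 0.372, 0.809 and 0.320 RPKM across controls against 2.24 and 3.97 RPKM in MycKO (1.43, SE 0.39, adjusted p = 0.157). Slc30a1, the zinc exporter of the plasma membrane, was at 7.26 ± 0.224 RPKM (SD, n = 3) in controls against 11.1 ± 1.13 RPKM (SD, n = 2) in MycKO (0.55, adjusted p = 0.311). Slc41a1, a magnesium carrier, was at 6.32 ± 0.910 and 8.88 ± 1.06 RPKM (0.44, adjusted p = 0.522). For these 3 genes both MycKO libraries lay above every control. Slc39a7, which releases zinc from the endoplasmic reticulum and was the most abundant of the class, was at 33.98 ± 1.60 and 33.8 ± 2.44 RPKM (-0.01, adjusted p = 0.994).

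Nucleotide sugar carriers of the Slc35 family and related genes, which supply the Golgi with building blocks of glycans, numbered 22 (14 higher, 8 lower, median 0.13, no call). Slc35c1, which carries GDP-fucose, was at 26.4, 24.7 and 23.5 RPKM across controls against 22.4 and 15.7 RPKM in MycKO (-0.38, adjusted p = 0.437), below every control in both. Slc35a1, which carries CMP-sialic acid, was at 16.8, 8.19 and 13.7 RPKM across controls against 18.4 and 17.1 RPKM in MycKO (0.49, adjusted p = 0.565). Slc35f6 was at 5.74 ± 0.186 and 8.31 ± 2.12 RPKM (0.45, adjusted p = 0.533), and Slc35b1, the most abundant of the class, at 26.9 ± 1.77 and 26.9 ± 7.41 RPKM (-0.03, adjusted p = 0.979). The class summed to 269 ± 25.2 RPKM (SD, n = 3) in controls against 281 ± 4.50 RPKM (SD, n = 2) in MycKO.

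Sugar carriers numbered 11 (6 higher, 5 lower, median 0.09, no call). Slc45a3, of a family that carries sucrose with protons, was at 1.41, 0.130 and 1.10 RPKM in controls, from 74, 8 and 55 reads, and at 5.84 and 12.1 RPKM in MycKO, from 111 and 564 reads. Its log2 fold change of 2.40 (SE 0.46, adjusted p = 0.0600) missed the threshold. It passed with the filter of at least 5 CPM (0.0362), in limma-voom (0.0353) and in the authors' deposited table (0.00102). Unlike Slc38a5 and Slc25a21, it was higher in MycKO 6 than in MycKO 5. Slc5a11, which imports inositol with sodium, was at 1.11, 0.970 and 2.90 RPKM across controls against 0.313 and 0.672 RPKM in MycKO (-0.77, adjusted p = 0.552), from 4 and 21 reads in MycKO. Slc45a4 was at 5.69 ± 0.914 and 7.92 ± 1.28 RPKM (0.42, adjusted p = 0.577). Slc50a1, a glucose carrier of the SWEET family and the most abundant of the class, was at 89.5, 53.5 and 89.2 RPKM across controls against 62.8 and 81.3 RPKM in MycKO (-0.08, adjusted p = 0.948), with control 2 the lowest library.

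Carriers of organic ions and vitamins numbered 21, of which 20 were tested (14 higher, 6 lower, median 0.26, no call). Members of the monocarboxylate family Slc16, without the 2 lactate carriers left out by name, were positive in 6 of 6, beside 57.1% of all genes tested. Their sum was 9.58 ± 1.16 RPKM (SD, n = 3) in controls against 21.5 ± 2.15 RPKM (SD, n = 2) in MycKO. Slc16a10 and Slc16a9 made up much of that rise. For Slc16a7 and Slc16a13, of low level and named after their values were seen, the groups overlapped. Besides Slc16a10, described with the amino acid carriers, Slc16a9 was at 1.83, 0.430 and 0.962 RPKM across controls against 3.55 and 5.36 RPKM in MycKO (1.43, SE 0.40, adjusted p = 0.172). Slc16a6 was at 3.74 ± 0.866 and 6.15 ± 0.0963 RPKM (0.61, adjusted p = 0.410). In all 3 genes both MycKO libraries lay above the controls, and macrophage markers were higher in the same libraries (1495 to 1591 against 290 to 438 RPKM). Slc52a2, a riboflavin carrier and the most abundant of the class, was at 9.38 ± 1.38 and 10.8 ± 0.478 RPKM (0.19, adjusted p = 0.814).

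The remaining 8 carriers, of lipids, choline and other solutes, had a median of 0.29, with 6 higher, 2 lower and no call. Slc44a2, a choline carrier, was among the 4 members with a mean of at least 100 RPKM, at 106, 125 and 105 RPKM across controls against 109 and 98.3 RPKM in MycKO (-0.10, adjusted p = 0.827). Its relative Slc44a1 was at 3.93, 0.589 and 1.49 RPKM across controls against 2.46 and 4.98 RPKM in MycKO (0.76, adjusted p = 0.654). Slc46a3, a lysosomal carrier, was at 11.8 ± 0.741 RPKM (SD, n = 3) in controls against 17.5 ± 2.28 RPKM (SD, n = 2) in MycKO (0.53, adjusted p = 0.257), with no overlap. Slc27a6, of the fatty acid transport family, was at 3.52 ± 1.60 and 5.81 ± 2.14 RPKM (0.61, adjusted p = 0.592). By their symbols 5 members were not carriers (Slc4a1ap, Slc7a6os, Slc36a1os, Slc2a4rg-ps and Slc9a3r1). Slc9a3r1, a scaffold protein that anchors sodium-proton exchangers, was at 109, 122 and 97.9 RPKM across controls against 91.6 and 105 RPKM in MycKO (-0.15, adjusted p = 0.727), and Slc4a1ap at 20.2 ± 5.60 and 15.6 ± 1.12 RPKM (-0.32, adjusted p = 0.693).

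**Figure D4:**
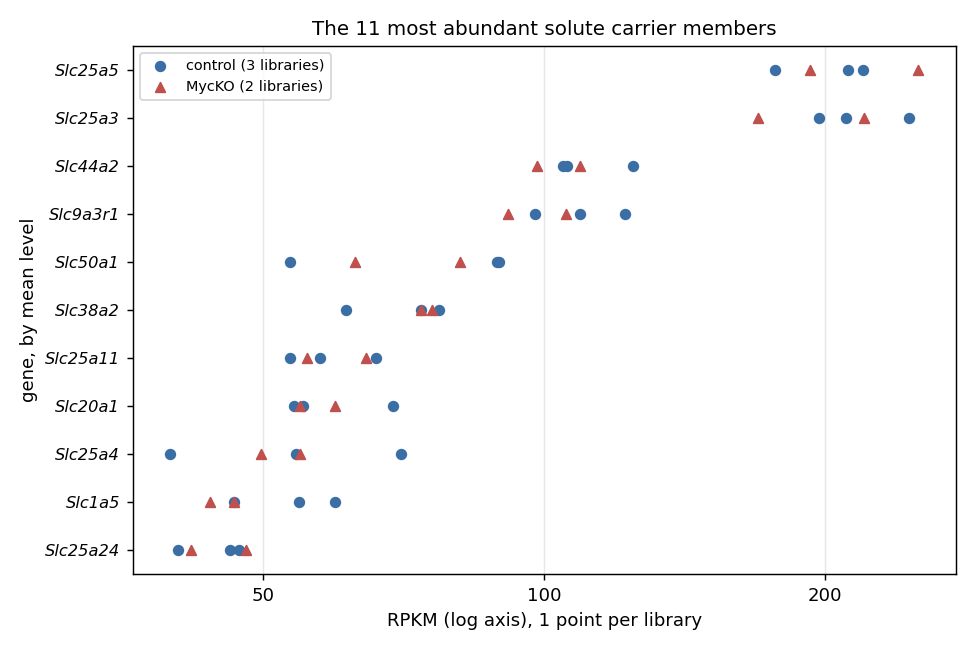
RPKM (horizontal axis, log scale) of the 11 members with the highest mean over all libraries, ordered by that mean; circles are the 3 controls and triangles the 2 MycKO libraries. Slc25a5 and Slc25a3 lead at 169 to 251 RPKM, and none of the 11 passed the test.

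Controls differed among themselves for some members. Over 113 members with a mean of at least 5 RPKM, the coefficient of variation between the 3 controls had a median of 13.6%. The widest was that of Slc15a2, a peptide carrier named after its values were seen, at 6.36, 14.5 and 0.115 RPKM across controls against 2.92 and 8.81 RPKM in MycKO, a coefficient of 103.2%. Slc29a1 followed at 67.5%, with control 2 high. Slc35f5, of the nucleotide sugar carrier family and named for this spread, had 58.8%, with control 1 high (12.2, 4.96 and 4.69 RPKM across controls against 6.77 and 8.05 RPKM in MycKO), and Slc7a6 had 50.8%, with control 2 high.

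Of 18 tested partners and regulators of the carriers, none passed limma, and the median was 0.05. Atp1b1, a beta subunit of the sodium pump, whose gradient drives many carriers, was at 172, 173 and 166 RPKM across controls against 132 and 118 RPKM in MycKO (-0.45, adjusted p = 0.0955), below every control in both, and it passed in limma-voom (0.0468) and in the authors' deposited table (0.0167). Emb, which escorts monocarboxylate carriers to the membrane, was at 68.5, 42.5 and 58.3 RPKM across controls against 95.9 and 107 RPKM in MycKO (0.86, adjusted p = 0.0985), and it too passed in limma-voom (0.0231) and in the authors' deposited table (0.00317). Of 31 tested carriers named without Slc, 24 had a positive log2 fold change, beside 57.1% of all genes tested, and none passed limma, with a median of 0.23. Slco2b1, an organic anion carrier, was at 0.719, 0.501 and 0.926 RPKM across controls against 3.12 and 11.1 RPKM in MycKO (2.05, adjusted p = 0.111), and it passed in limma-voom (0.0306) and in the authors' deposited table (4.99e-06). The most abundant was Ucp2, of the mitochondrial family, at 380, 398 and 264 RPKM across controls against 358 and 294 RPKM in MycKO. These genes were named after their values were seen. Of the 47 Slc genes under the level of 1 RPKM, 10 passed the filter and none was called. In 15 of the 47 both MycKO libraries lay above every control, and in none below. Among all genes tested, which had passed the filter, the shares were 18.8% and 10.4%. Most of the 47 did not pass it, and no value can lie below a control at 0, so these shares are not a like background.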

How the data were processed

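RNA-seq values of sorted splenic NK cells were used from 3 control and 2 MycKO libraries. The authors deposited 1 table with an RPKM value per sample; per the file headers it also gives a mean normalized signal per group, a ratio (fold change), its log2 value, and a p-value with its adjusted p-value. Per the submitters' processing notes, TopHat and edgeR were used and the build was mm10; tool versions, annotation, the counting step and its strand setting are not given in the sources used, so reads of overlapping and antisense genes cannot be told apart with certainty. The lowest mean normalized signal was 2.1, so rarer genes were not analysed here.

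RPKM values were tested as log2(RPKM + 1) with limma 3.58.1 in R 4.3.3 over all 5 samples, letting the variance depend on level (4.41 prior and 3 residual degrees of freedom). A gene entered when 2 or more samples reached 1 RPKM (11190 genes), and Benjamini-Hochberg adjusted two-sided p-values over these were called under 0.05. Values in brackets after a change are such adjusted p-values, from limma unless limma-voom or the authors' deposited table is named. Reads were recovered from RPKM values and group means, and all came out whole within 0.0001 of a read (100% of values in each sample). They gave depths, shares and the limma-voom alternative. The procedure was tested on simulated data. Alternatives were another pseudocount, filters, scalings, leaving out each sample, limma-voom, a stricter threshold and the authors' p-values.

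The members and lists were chosen with earlier results of these data known. Classes were assigned by family, and a few genes (such as Slc43a3 and Slc5a6) were placed by their own substrate. Other genes with a differing substrate, such as Slc16a10, kept the class of their family. Named genes are the members called, the 3 with the smallest p of each class (2 in classes under 6), the most abundant of each class, and the carriers listed as tied to MYC or known in NK cells; others are marked as chosen or named after their values were seen. Gene coordinates are from GENCODE vM21 (mm10) and promoters from RefSeq (GRCm38.p6). Plots used matplotlib 3.10.9 (Python 3.11.15).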

Additional observations from a re-analysis of the deposited data

How the results depend on the processing

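No paired analysis was possible because the groups share no replicate numbers. The count of members called higher, 2 with all libraries, was 0 with a pseudocount of 0.1 and at an adjusted p under 0.01, 1 under median-of-ratios and upper-quartile scaling, 3 with no filter, 5 with the filter of at least 5 CPM and in limma-voom, and 8 in the authors' deposited table. It ranged from 0 to 2 when a library was left out, and the cause was not tested. No member was called lower under any of these alternatives, where 2 were lower at an unadjusted p under 0.05 with all libraries. The median log2 fold change of the members, 0.103, stayed above 0 in all of them. It was 0.0528 under median-of-ratios scaling, 0.0617 under upper-quartile scaling, 0.142 in limma-voom, 0.0492 in the authors' deposited table and 0.0768 for members of at least 5 RPKM, and 0.0742 to 0.120 when a library was left out. The median of all genes fell from 0.05 to -0.00086 under median-of-ratios scaling. Of the named members, those whose sign turned had no call on either side. With 1 library left out, signs turned for Slc38a2 (-0.013 to 0.15), Slc20a1 (-0.11 to 0.066), Slc39a7 (-0.079 to 0.064), Slc25a5 (-0.067 to 0.32), Slc35b1 (-0.30 to 0.25), Slc50a1 (-0.32 to 0.11), Slc7a5 (-0.26 to 1.10), Slc3a2 (-0.10 to 0.14), Slc7a1 (-0.062 to 0.14), Slc15a2 (-0.79 to 1.11), Slc25a3 (-0.36 to 0.021), Slc25a4 (-0.24 to 0.17) and Slc29a3 (-0.23 to 0.74). They turned in limma-voom for Slc39a7 (0.020), Slc35b1 (0.10) and Slc50a1 (0.017), under median-of-ratios scaling for Slc3a2 (-0.031) and Slc7a1 (-0.034), under upper-quartile scaling for both (-0.021 and -0.026), and in the authors' deposited table for Slc3a2 (-0.034), Slc7a1 (-0.058) and Slc15a2 (-0.31). Leaving out 1 library also moved uncalled values by over 1.5 times for Slc27a6 (0.29 to 0.94), Slc44a1 (0.36 to 1.19), Slc29a1 (0.29 to 1.07), Slc15a4 (0.50 to 1.04), Slc19a1 (0.26 to 0.59), Slc35a1 (0.21 to 0.69), Slc35f6 (0.21 to 0.68) and Slc45a4 (0.27 to 0.56), among others. MycKO 5 had the lowest depth, so low values there are the least certain.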
